A study of Caenorhabditis elegans with 2 samples.

Results

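Of 9856 autosomal regions in the joint list of NPAX-4 ChIP-seq regions from Caenorhabditis elegans embryos, 1954 were intergenic and away from promoters, and these are the members described here. They were chosen by position, with signal used only to keep the strongest of any regions that overlapped. The summit, which is the base of highest signal in a region, lay outside every protein-coding gene body and over 500 bp from every tRNA, snoRNA, snRNA, miRNA and piRNA gene. It also lay outside the window from 1000 bp upstream to 100 bp downstream of any protein-coding 5′ end. Intergenic here means outside protein-coding genes, since 179 summits (9.16%) lay in another annotated gene, of which 105 were in pseudogenes.

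Both samples came from one group, and no second condition was present. The embryos were of strain OP493, with genotype unc-119(tm4063) III; wgIs493, a hermaphrodite line that stably expresses NPAX-4 with a GFP-FLAG tag at its C terminus. They were late embryos, collected 4 h after synchronisation by egg bleaching, and whole organisms were used, so every cell type of the embryo contributed. The labels differ on the antibody: the description names one to GFP, and the antibody field names npax-4. The control library is not analysed here. The 2 samples are labelled as biological replicates. The joint list was made from both replicates together, so it is not independent of the replicate lists.

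NPAX-4 belongs to the paired-domain proteins, a family of DNA-binding transcription factors related to the Pax proteins of other animals. In the compact genome of C. elegans most known regulatory sequence lies close to 5′ ends, and the intergenic sequence farther away holds distal elements, pseudogenes and many repeats. Tandem repeats are stretches in which a short unit follows itself many times. Genes transcribed by RNA polymerase III, such as tRNA genes, carry internal promoter elements called the A box and the B box.

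The sequences below run from 75 bp before to 75 bp after the summit of 7 members that were also in the reproducible peak list. Each is shown because it holds a repeat unit or a match to the A box or the B box. The reproducible members nearest nas-30, lgc-26 and Y17D7C.2 are not printed. In the windows nearest lgc-26 and Y17D7C.2, no unit or match was marked. The printed sequences are from the plus strand of build ce11. Capitals in the first 5 mark one exact copy of a unit that recurs in the window, in the region nearest F52G2.3 only in its first 84 bases. Capitals in the region nearest D2096.7 mark a match to the A box on the minus strand, and those in the region nearest dhs-8 mark a match to the B box motif GTTCGANNC on the plus strand.
NPAX-4 region nearest fbxa-55, chrIII:931531-931681: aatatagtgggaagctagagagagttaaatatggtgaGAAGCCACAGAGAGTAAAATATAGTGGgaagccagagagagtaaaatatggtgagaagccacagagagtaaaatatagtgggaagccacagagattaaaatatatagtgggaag
NPAX-4 region nearest ttr-17, chrIV:11070995-11071145: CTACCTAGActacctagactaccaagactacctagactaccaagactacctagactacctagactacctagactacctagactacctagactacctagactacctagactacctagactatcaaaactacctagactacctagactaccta
NPAX-4 region nearest T28H10.2, chrV:12510093-12510243: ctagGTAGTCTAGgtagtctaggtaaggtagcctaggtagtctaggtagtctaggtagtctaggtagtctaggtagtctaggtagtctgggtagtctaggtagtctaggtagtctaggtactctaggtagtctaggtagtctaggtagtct
NPAX-4 region nearest Y49G5A.1, chrV:5284725-5284875: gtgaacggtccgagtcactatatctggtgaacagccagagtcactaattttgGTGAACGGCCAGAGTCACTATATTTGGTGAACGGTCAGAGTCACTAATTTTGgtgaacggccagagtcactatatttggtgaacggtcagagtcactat
NPAX-4 region nearest F52G2.3, chrIV:13549459-13549609: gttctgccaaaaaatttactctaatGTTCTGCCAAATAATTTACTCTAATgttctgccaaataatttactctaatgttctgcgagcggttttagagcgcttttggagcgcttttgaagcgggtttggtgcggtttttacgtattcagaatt
NPAX-4 region nearest D2096.7, chrIV:8375529-8375679: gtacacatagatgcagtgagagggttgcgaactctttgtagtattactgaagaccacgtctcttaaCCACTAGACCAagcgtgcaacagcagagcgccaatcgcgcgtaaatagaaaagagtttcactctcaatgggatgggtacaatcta
NPAX-4 region nearest dhs-8, chrII:14496926-14497076: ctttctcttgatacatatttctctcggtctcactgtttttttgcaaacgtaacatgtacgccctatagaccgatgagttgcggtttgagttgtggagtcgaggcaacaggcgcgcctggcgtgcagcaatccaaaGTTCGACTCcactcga

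The unit was 27 bp long in the region nearest fbxa-55 and 9 bp long in those nearest ttr-17 and T28H10.2. It was 52 bp long in the region nearest Y49G5A.1 and 25 bp long in the region nearest F52G2.3. The 9-bp units of the ttr-17 and T28H10.2 regions were the same sequence on opposite strands. Of the 140 words of 12 bases in the T28H10.2 window, 98 occurred in the unit of the ttr-17 region on either strand. The other 2 printed windows had no such unit.

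The first question was how many of the 1954 members belonged to the reproducible peak list, which the authors thresholded on the irreproducible discovery rate. A member was called reproducible when it overlapped that list by at least 1 bp. In all, 10 members were reproducible, or 0.512% (exact 95% interval 0.246 to 0.939%), against 256 (2.60%) of all autosomal regions. With replicate 2's own list alone, and its 354 strongest regions as the calls, the share was 0.325% (9 of 2773), and with that of replicate 1 it was 0.514% (15 of 2917). Intronic regions had a share of 0.388%, with 14 of 3607 reproducible. Among promoter regions 103 of 2399 were reproducible, a share of 4.29% (interval 3.52 to 5.18%). Regions within 500 bp of a small RNA gene had 126 of 699, or 18.0%.

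The reproducible share of the members was therefore lower than that of promoters and could not be told from that of introns. The difference from promoters was −3.78 percentage points by Newcombe's method (95% interval −4.70 to −2.93), and the 99% interval, used because 5 such differences were compared, ran from −5.01 to −2.65. The difference from introns was 0.124 points (95% interval −0.228 to 0.579). The comparison with regions near small RNA genes is given as values with no interval on the difference. These intervals treat regions as independent and cover counting error only.

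**Figure D1:**
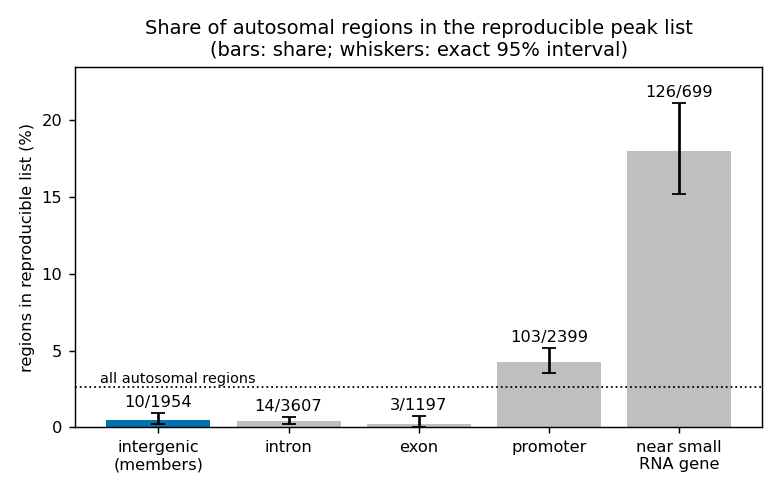
Share of autosomal regions of each class that overlapped the reproducible peak list, in percent, with exact 95% intervals as whiskers and counts above. The intergenic members, at 0.512%, sit near introns at 0.388% and below promoters at 4.29%, and the dotted line is the 2.60% of all autosomal regions.

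Per length of sequence that satisfied the rule, 17.1 Mb in all, there were 114 members per Mb (exact Poisson 95% interval 109 to 119). Reproducible members numbered 0.584 per Mb (0.280 to 1.07), close to the 0.576 per Mb of introns (0.315 to 0.967). Promoters had 6.39 reproducible regions per Mb (5.22 to 7.75). Where the summit was within 200 bp of the promoter limit on the members' side, 1 of 153 members was reproducible, and within 200 bp on the promoter side it was 1 of 164 regions.

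The 5 strongest members stood well above the rest in both replicates. Signal is the value the authors' peak caller gave each region, used here only for rank and description. The joint signal was 28.7 to 306 over all members, with a median of 34.6, against a median of 34.9 over all autosomal regions. The strongest member, on chromosome I from 933370 to 933666, lay 4966 bp upstream of nas-30, which encodes an astacin-family metalloprotease. Its joint signal was 306. It had signal 169 in replicate 1, where it ranked 9, and 163 in replicate 2, where it ranked 14.

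The second member, on chromosome V from 265210 to 265659, lay 2872 bp upstream of lgc-26, a gene of the ligand-gated ion channel family, with nhr-204 on the other side. Its joint signal was 261, and it had 139 in replicate 1 (rank 18) and 98.0 in replicate 2 (rank 63). The region nearest fbxa-55, an F-box gene, on chromosome III from 931547 to 931658, had joint signal 180, with 106 (rank 41) in replicate 1 and 73.1 (rank 111) in replicate 2. It lay past the 3′ end of fbxa-55, 4481 bp from its 5′ end. At 112 bp it was shorter than its printed window, which ran past both of its ends. The nas-30 region was 297 bp long, while 1952 of the 1954 members were 450 bp long. The lgc-26 and fbxa-55 regions were both higher in replicate 1 than in replicate 2, as was nas-30.

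The other 2 of the strongest 5 lay in a short gap and in an annotated noncoding gene. The region nearest D2096.7, on chromosome IV from 8375379 to 8375828, lay in a gap of 350 bp between the facing 3′ ends of D2096.7 and aagr-1, a gene for an acid alpha-glucosidase related protein. Its joint signal was 171, with 91.3 (rank 68) in replicate 1 and 78.9 (rank 93) in replicate 2. The region nearest dhs-8, which encodes a short-chain dehydrogenase, on chromosome II from 14496776 to 14497225, lay 1025 bp upstream of it and inside the noncoding RNA gene K10H10.14. Its joint signal was 150, with 87.7 (rank 76) in replicate 1 and 67.2 (rank 130) in replicate 2. It is the member nearest to the edge of the promoter window among the reproducible ones.

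The other 5 reproducible members formed a narrow group, with joint signals from 89.0 to 98.2. The region nearest ttr-17, a transthyretin-related gene on chromosome IV, had 46.0 in replicate 1 (rank 292) and 43.3 in replicate 2 (rank 297). The region nearest F52G2.3, also on chromosome IV, had 61.3 (rank 168) and 53.2 (rank 199). These 2 had close values in both replicates.

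On chromosome V, the region nearest Y17D7C.2, from 18723337 to 18723786, lay in the pseudogene Y17D7C.3 and had 54.1 in replicate 1 (rank 210) and 42.6 in replicate 2 (rank 313). The region nearest Y49G5A.1 had 64.1 (rank 150) and 44.2 (rank 287). The region nearest T28H10.2, between it and the neuropeptide-like gene nlp-46, ranked 248 in replicate 1 and 371 in replicate 2. All 10 reproducible members had the higher signal in replicate 1, and the scale of signal may differ between the lists.

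**Figure D2:**
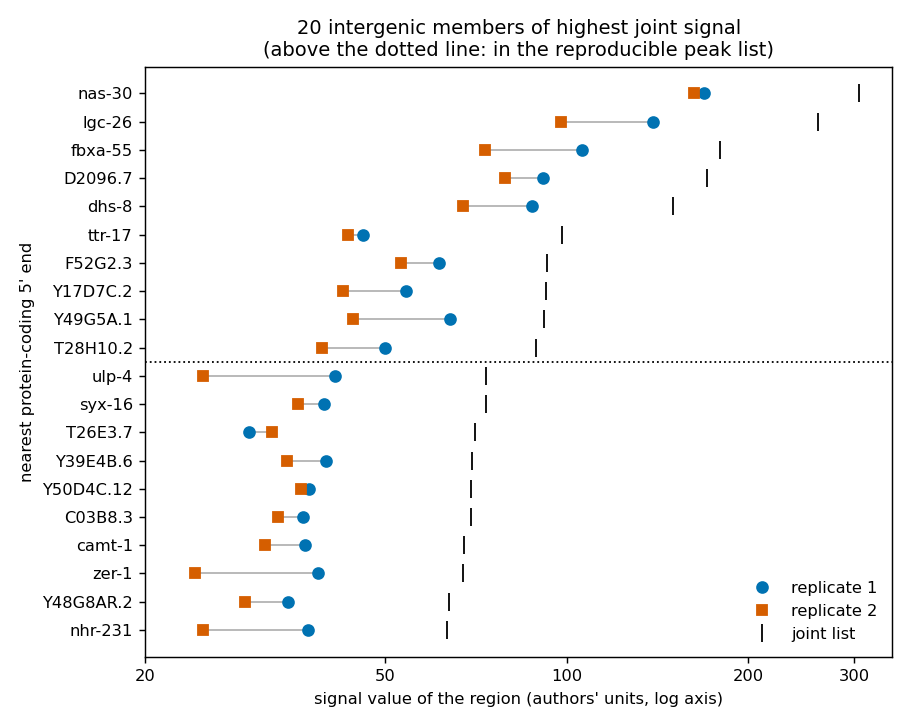
Signal value of the 20 members of highest joint signal, each labelled by the gene with the nearest 5′ end, in replicate 1 (circles), in replicate 2 (squares) and in the joint list (bars) on a log axis. Members above the dotted line were reproducible, and the first 5 of them, with joint signals from 150 to 306, stand apart from the other 5 at 89.0 to 98.2.

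The 10 members of next highest signal were not in the reproducible list, and their joint signals ran from 63.2 to 73.6. The weakest reproducible autosomal region had joint signal 76.4, and the strongest autosomal region outside the list also had 76.4. To these digits, joint signal thus separated the autosomal regions in the list from the others. The 10 reproducible members were therefore also the 10 of highest joint signal. The threshold itself was not given. Among the 10 members of next highest signal was the region 1048 bp upstream of ulp-4, a SUMO protease gene. On its other side was ire-1, the sensor of unfolded proteins. The ulp-4 region had joint signal 73.6, with 41.2 in replicate 1 (rank 371) and 24.9 in replicate 2 (rank 1863). A region with a similar joint signal of 73.5, nearest the syntaxin gene syx-16, had 39.5 (rank 421) and 35.8 (rank 451). Thus 1 of the 2 was far lower in rank in replicate 2 and the other was not.

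The region nearest T26E3.7 lay in a convergent gap of 358 bp beside the ATP synthase gene atp-1, with joint signal 70.5. It was the only one of the 20 with the higher signal in replicate 2, at 32.4 (rank 616) against 29.7 in replicate 1 (rank 1419). The remaining 7 were nearest to Y39E4B.6, Y50D4C.12, C03B8.3, camt-1, zer-1, Y48G8AR.2 and nhr-231. Of these, C03B8.3 is divergent from lin-13, a zinc finger gene, camt-1 encodes a calmodulin-binding transcription activator, and nhr-231 is a nuclear hormone receptor gene.

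Nearly all reproducible members were also near the top of each replicate's own list, which is largely fixed by how they were selected. All 10 were among the 354 strongest regions of replicate 1, a number set by the size of the reproducible list (exact interval 69.2 to 100%). Of the 354 strongest in replicate 2, they made up 9, or 9 of 10 (55.5 to 99.7%), and the exception was the T28H10.2 region. Among the 1944 other members, 3 were in that group in replicate 1 and 1 in replicate 2, and none in both.

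Most members were weak and were not shared between the replicate lists, which was also so over all autosomal regions. Of the 1954, 1458 (74.6%, exact interval 72.6 to 76.5%) overlapped a region of replicate 1 and 1321 (67.6%, interval 65.5 to 69.7%) one of replicate 2. Both lists held 872 of them (44.6%, interval 42.4 to 46.9%), and 47 were in neither. Over all autosomal regions 47.0% were in both and 2.48% in neither, close to the 44.6% and 2.41% of members. Introns were similar, at 45.7% in both, and promoters had 51.5%. Of the 489 members of highest joint signal 80.2% were in both lists (interval 76.3 to 83.6%), and of the 489 of lowest signal 83 were (interval 13.8 to 20.6%). Joint signal was made from these same replicates, so such a rise is largely fixed in advance and is given as a description.

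Signal in replicate 1 and replicate 2 was nearly unrelated among the 872 members found in both, with a Spearman correlation of 0.10 across regions, and 0.07 over the 862 of these that were not reproducible. Over the 10 reproducible members it was 0.94, in a group chosen for high signal. For introns it was 0.11, for exons 0.02, for the 1235 promoter regions in both lists 0.34, and for all autosomal regions 0.25. The members were kept by a joint list made from both replicates, with a lowest joint signal of 28.7. Within the 4 groups of members by joint signal, from lowest to highest, it was −0.08, −0.06, −0.33 and −0.14. The value therefore depends on the range of joint signal kept. These correlations are across regions of 1 genome, which share both libraries and their depth and are not replicates. They describe the lists, and no p-value was computed.

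**Figure D3:**
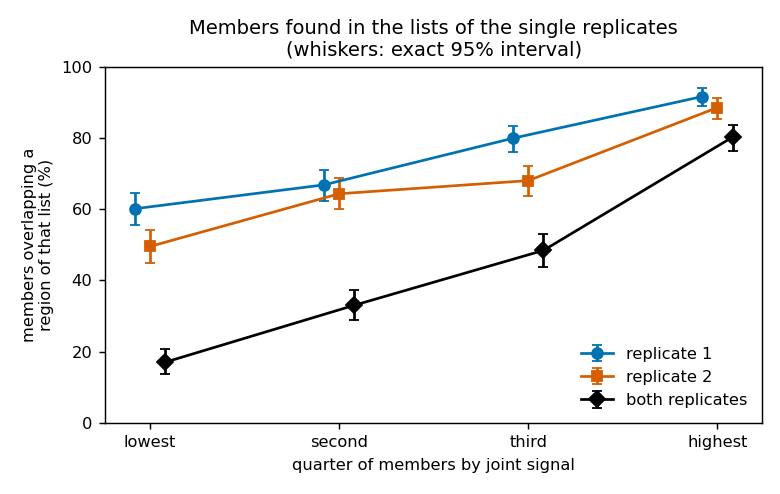
Percent of members that overlapped a region in the list of replicate 1, of replicate 2 and of both, in 4 groups of equal size by joint signal, with exact 95% intervals as whiskers. The share in both rises from 83 of 489 in the lowest group to 80.2% in the highest, which is largely fixed because joint signal came from these replicates.

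Tandem repeats were more frequent among the reproducible members than among the other regions. This was noticed after the values were seen, so it is given as counts with no test. A window was called a tandem repeat when it matched itself at 75% or more of its bases after a shift of 2 to 75 bases. That held for 4 of the 10 reproducible members, those nearest fbxa-55, ttr-17, Y49G5A.1 and T28H10.2, with identities of 86.6%, 95.3%, 93.9% and 92.3%. It held for 29 of 1944 other members (1.49%, exact interval 1.00 to 2.14%) and for 109 of all 9856 autosomal regions (1.11%). Among the 246 reproducible autosomal regions that were not members it held for 0 (interval 0 to 1.49%). Most of these were near small RNA genes (126) or at promoters (103). For the 14 reproducible introns alone it was 0, with an interval of 0 to 23.2% that overlaps that of the reproducible members.

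At a lower limit of 60% identity, 6 of the 10 reproducible members qualified, with nas-30 at 69.1% and F52G2.3 at 60.3% added, against 64 of the others (3.29%). Y17D7C.2 reached 56.7%, and lgc-26, D2096.7 and dhs-8 were between 32.9% and 40.4%, near the median of 39.5% over all members. The 10 members of next highest signal had a highest identity of 43.0%, and none qualified. So 6 of the 10 strongest members and 0 of the next 10 passed the lower limit.

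**Figure D4:**
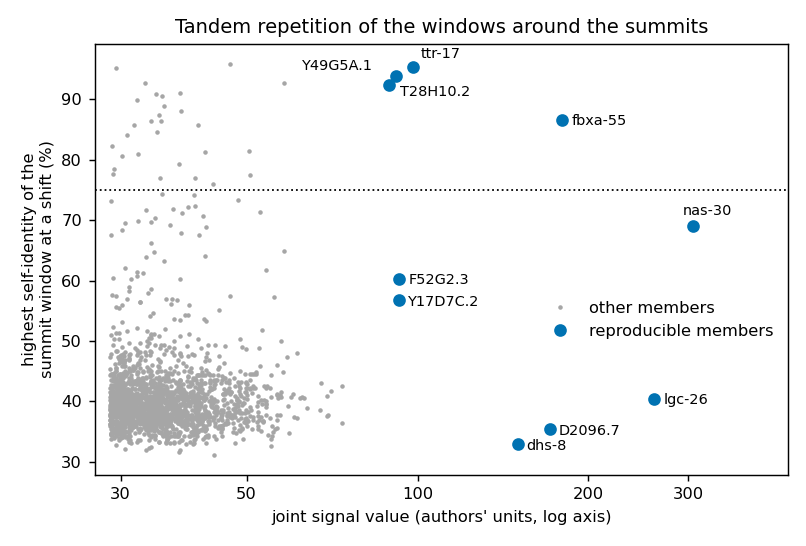
Highest identity of each summit window with itself at a shift of 2 to 75 bases, in percent, against joint signal on a log axis, with reproducible members in blue and labelled and others as gray points. The dotted line is the limit of 75%, and 4 of the 10 reproducible members lie above it, with identities from 86.6 to 95.3%.

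Sequence present more than once in the genome bears on where short reads can be placed. Copies within the same window were counted too, so a tandem repeat can raise this share by itself. In the lgc-26, ttr-17 and Y49G5A.1 windows, over 50% of the words of 36 bases occurred more than once in the genome, at 66.4%, 73.3% and 67.2%. That was 3 of 10 reproducible members (interval 6.67 to 65.2%), against 50 of 1944 others (2.57%, interval 1.91 to 3.38%). The ttr-17 and Y49G5A.1 windows were also tandem repeats, so this count is not separate from that of tandem repeats. Over all autosomal regions it was 161 (1.63%), and over the 246 reproducible regions that were not members 7 (2.85%). Of the 14 reproducible introns 2 were such windows (14.3%, interval 1.78 to 42.8%), an interval that overlaps that of the reproducible members. Any repeated word was present in 7 of the 10, in 299 of the others (15.4%) and in 13.4% of all autosomal regions. It was also present in 75 of the 246 reproducible regions that were not members (30.5%), and in 67 of the 126 of these near small RNA genes (53.2%). No repeated word was in the dhs-8, D2096.7 or Y17D7C.2 windows. Read length and the handling of multiply mapping reads are not stated in the labels, and the part of repeated sequence in the signal was not tested.

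The 27-bp unit of the fbxa-55 region recurred at 57 places in the nuclear genome. Of these, 11 (19.3%) overlapped a region of the joint list and 3 (5.26%) a reproducible region. The joint list covered 5.38% of the nuclear genome and the reproducible list 0.143%. The places had a median length of 562 bp and reached 7916 bp, and a longer place can overlap a list more readily. The unit was taken from a reproducible member, so the counts describe where it lies and are no test. The nas-30 window held 54 words of this unit of 140 (38.6%). Members whose windows held the unit in at least 20% of their words numbered 7, and they covered the range of signal from 29.0 to 306.

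Of these 7 members, only nas-30 and fbxa-55 were reproducible. The others were chosen for naming after their values were seen. The strongest of them was nearest Y73F4A.1, with joint signal 58.2, and had 34.2 in replicate 1 (rank 702) and 38.7 in replicate 2 (rank 382). The Y50D4B.2 region had joint signal 46.7 and the ddl-3 region 38.1, with ranks 2935 and 15102 in replicate 1 and ranks 5892 and 1562 in replicate 2. The alh-12 and haf-7 regions, at 30.2 and 29.0, were absent from replicate 2. The same unit therefore went with both high and low signal. The windows also differed in the share of their 36-base words that occurred more than once in the genome. It was 42.2% for nas-30 and 37.1% for fbxa-55, and 56.9 to 76.7% for the others. Whether this bears on the signal was not tested. A further region with the unit, on the X chromosome and so not a member, was also reproducible.

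The 9-bp unit of ttr-17 and T28H10.2 recurred at 4 places in the nuclear genome, and the joint list overlapped 2 of them, which are these 2 members. The 52-bp unit of Y49G5A.1 recurred at 34 places, of which 22 were on the X chromosome. The joint list overlapped 2 (5.88%), and 1 was reproducible, the Y49G5A.1 region itself. The other member with that unit, nearest 2L52.1 and also named after its value was seen, ranked 4305 in the joint list. The 25-bp unit of F52G2.3 recurred at 23 places, of which 2 (8.70%) overlapped the joint list and 1 was reproducible, the F52G2.3 region itself.

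Matches to elements of RNA polymerase III promoters were about as frequent at the members as over all autosomal regions. The B box core GGTTCGA on either strand was in 0 of 10 reproducible windows (interval 0 to 30.8%) and in 40 of 1944 others (2.06%), a difference of −2.06 points (95% interval −2.79 to 25.7). It was in 2.05% of all members and 2.26% of all autosomal regions. The motif GTTCGANNC, which overlaps that core, gave the opposite order, with 1 of 10 reproducible members (10.0%, interval 0.253 to 44.5%), the dhs-8 region, and 41 others (2.11%). It was in 250 of all autosomal regions (2.54%). It was in 61 of 246 reproducible regions that were not members (24.8%). The rule removed members near annotated tRNA genes, which carry the B box. The A box was in 202 members (10.3%) and in 1060 autosomal regions (10.8%). Of the 10 reproducible members, 1 had it (10.0%), the D2096.7 region. Among the 246 reproducible regions that were not members, 101 had it (41.1%). These included 87 of 126 near small RNA genes (69.0%) and 9 of 103 at promoters (8.74%). A match is a description of the letters.

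The word TCACGC was taken here as a core of paired-domain sites. It was in 52 of all members (2.66%), in 272 of all autosomal regions (2.76%) and in 13 of the 256 reproducible ones (5.08%). None of the 20 strongest member windows held it (interval 0 to 16.8%), and this interval includes all of these shares. The word GAGAGA was in 7 of the 20 (35.0%, interval 15.4 to 59.2%), in 12.5% of all members and in 9.62% of all autosomal regions. It was in 39 of the 256 reproducible autosomal regions (15.2%) and in 3 of the 10 reproducible members (interval 6.67 to 65.2%). It was one of several words counted, and its share was not tested. The nas-30, fbxa-55 and dhs-8 windows were among the 7, and those of nas-30 and fbxa-55 share a repeat unit. Mean GC content was 39.3% ± 8.34 (SD, n = 10) in reproducible members and 36.6% ± 8.05 (SD, n = 1944) in the others, a difference within 1 SD.

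The region nearest syx-16 lay in srpr-2.1, a gene for the RNA of the signal recognition particle, which the rule's list of small RNA genes does not hold. In its window, 89.7% of the words of 36 bases occurred more than once. Of the related genes, looked up after this value was seen, srpr-3 lay at a weaker member with signal 38.7, and the other 3 were at regions that were not members, with signals from 67.0 to 125, of which only srpr-2.2 was reproducible. Reads from copies of this gene may not be separable.

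No difference in the reproducible share with distance from the nearest 5′ end was detectable. Over all members the median distance was 2572 bp, with a range of 353 to 33189 bp, and for the 10 reproducible it was 2826 bp, from 1025 to 4966 bp. Of members over 2000 bp away, 8 of 1260 were reproducible (0.635%), and within 2000 bp 2 of 694 (0.288%). The difference of 0.347 points had a 95% interval from −0.472 to 0.994. With the limit at 5000 bp the sign turned, since 0 of 357 farther members were reproducible, with a difference of −0.626 points (interval −1.15 to 0.476).

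Between genes that point at each other, no difference in this share was detectable either. There 1 of 237 was reproducible (0.422%), the D2096.7 region, and elsewhere 9 of 1715 (0.525%), a difference of −0.103 points (interval −0.687 to 1.84). The number of members per Mb did vary with the setting. It was 81.4 between convergent genes (exact Poisson interval 71.4 to 92.5), 116 between genes in tandem (110 to 123) and 130 between divergent genes (120 to 140).

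By position along the chromosome, members were denser toward the ends. In the middle of 3 equal parts there were 84.1 per Mb (interval 76.6 to 92.1) and in the outer parts 128 (122 to 135). Chromosome I had the highest density, 143 per Mb (129 to 158), and chromosome V the lowest, 91.9 (83.8 to 101), while III (119 to 147) overlapped the first and IV (94.2 to 118) the second. Reproducible members numbered 1 on each of I, II and III, 3 on IV and 4 on V, and the intervals of these densities overlapped. The members lay in 1379 gaps between genes, of which 354 held 2 or more, and the most in a gap was 9.

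Of 265 members whose nearest 5′ end belonged to one of 16 gene families, 1 was reproducible, the fbxa-55 region. That is 0.377% (exact interval 0.00955 to 2.08%), close to the 0.512% of all members. Homeobox genes, which encode transcription factors of development, were nearest to 22 members (1.13%) at 14 genes, with a highest signal of 61.3, and make up 0.354% of autosomal protein-coding genes. Nuclear hormone receptor genes were nearest to 45 of the 1954 members and make up 1.43% of genes. Neuropeptide and insulin genes were nearest to 28 (1.43%, against 0.615%). Chemoreceptor genes were nearest to 83 (4.25%, against 7.70% of genes), and F-box genes to 18 (0.921%, against 1.77%). Genes differ in the length of sequence around them, and these shares were not tested. Among paired-domain genes only npax-1 was nearest to a member, a region 3509 bp upstream of it with joint signal 31.1. It ranked 6508 in replicate 1 with 21.5 and was absent from replicate 2.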

How the data were processed

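NPAX-4 binding was measured by ChIP-seq in 2 biological replicates of one group. The members and lists were chosen with earlier results of these data known. The authors deposited region lists on ce11, a relaxed list for each replicate, one for both together (12454 regions) and one thresholded on the irreproducible discovery rate (354 regions), per the deposited file descriptions. Per the file headers and layout, each region has a signal value, with its scale not stated, a −log10 q value, which was not used in a test, and another number, the deposited summit offset in bases. The aligner, caller and threshold were not given in the sources used here. No read counts were in the lists, so depth is unknown. Lists on ce10 were not used.

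From these, overlapping regions were reduced to the strongest, and summits were set against Ensembl release 115 (WBcel235), coordinates 1-based. Shares have exact Clopper-Pearson 95% intervals, 5 differences of shares Newcombe intervals (95% and 99%), and densities exact Poisson intervals. These cover counting error over regions only, and regions are not replicates of a condition. Sequence came from the reference in windows of 75 bp each side of the summit. The functions were tested on simulated data. Named genes were those nearest to or flanking the 20 strongest members, the 2 strongest reproducible members of each family, and any paired-domain gene nearest a member. Other members with a shared repeat unit and the srpr genes were named after their values were seen. Alternatives covered each replicate alone, the reduction, calling limit, overlap, and distances. Tandem repeats were examined after seeing the data. Python 3.11.15, pandas 2.3.3, numpy 2.4.6, SciPy 1.17.1 and matplotlib 3.10.9 were used.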

Additional observations from a re-analysis of the deposited data

How the results depend on the processing

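The lower share of members than of promoters in the reproducible list kept its direction, with an interval excluding 0, under all 11 alternatives, from −5.44 to −1.54 points, including each replicate alone (−2.83 without replicate 1 and −2.49 without replicate 2). The share of members was 0.325% without replicate 1 and 0.514% without replicate 2, and ranged from 0.256%, with the 170 stronger reproducible peaks, to 0.627%, with overlapping regions kept. The differences that could not be told from 0 changed sign in some settings, each time with an interval that included 0. Members minus introns was −0.0343 points without replicate 1 and 0.0381 without replicate 2. Far minus near members was −0.0614 with the limit at 3000 bp and −0.626 at 5000 bp. Convergent minus other members was 0.384 without replicate 2 and −0.0466 without replicate 1, 0.189 with the 170 stronger reproducible peaks, 0.0283 when members inside any annotated gene were left out, and 0.0795 without windows with over 50% of their 36-base words repeated, a setting chosen after seeing the data. The cause of these changes was not tested. Of the 10 reproducible members, all (100%) were among the 1000 highest regions of replicate 2, against 90.0% at the main limit and 8 of 10 when 50% of the shorter region had to overlap. The count of tandem repeats among them was 4 to 6 over limits of 60% and 80% and windows of 50 and 150 bp each side, chosen after seeing the data. Using the 5′ ends of every transcript, also chosen after seeing the data, left the 1954 members as they were. With 10 reproducible members, shares among them have wide intervals, and unknown depth limits what absence from a list can show. No paired analysis was possible because there was 1 group.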
